A study of Caenorhabditis elegans with 6 samples.

Results

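Adult *C. elegans* fed *E. coli* OP50 mixed with the *Lactococcus lactis* subsp. *lactis* strain LL12007 (OP50+LL12007) were compared with animals fed OP50 alone, across all genes of their RNA. The comparison takes 2 OP50+LL12007 libraries and 2 OP50 libraries, which are 4 of the 6 libraries of the series, chosen by the diet named in their sample labels. OP50 is the standard laboratory food of the worm, and LL12007 is a Gram-positive lactic acid bacterium that makes the bacteriocin nisin. All animals were wild-type Bristol N2 hermaphrodites, 3 days old when moved to the diets and then fed for 5 days on peptone-free agar, and both diets contained OP50. The RNA came from whole animals pooled within a group, so that every tissue, and any eggs held in the uterus, contributed to it. The other 2 libraries of the series were from worms fed OP50 mixed with a second *Lactococcus* strain, called LL100923 here as in the labels although the paper numbers it differently (OP50+LL100923), and entered the fit to help estimate the spread between libraries.

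*C. elegans* eats bacteria, and its food supplies both calories and compounds that it cannot make. Heme, the iron-containing cofactor of cytochromes, catalases and many other enzymes, is one of these, since the worm lacks the enzymes that build it and takes heme up through the intestine with transporters of the HRG family. Unsaturated and branched-chain fatty acids are partly made by the worm with its own desaturases and elongases, whose genes are known to respond to diet. In an adult hermaphrodite, the germ line and its oocytes hold a large part of the RNA, next to intestine, muscle, epidermis and neurons. In RNA from whole animals, fewer cells of a type and less RNA per cell cannot be told apart.

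The OP50+LL12007 libraries held 15953213 and 14929196 counts, and the OP50 libraries 21691687 and 17280251. The OP50+LL12007 libraries lay close together, with a correlation of log counts of 0.990 over the tested genes, against 0.979 for the OP50 pair. Their counts differed less as well (chi-square divided by its degrees of freedom 4.86, against 41.3 for the OP50 pair), and both pairs were further apart than sampling alone would leave them. On the first principal component, with 48.2% of the variance of the 6 libraries, OP50+LL12007 lay at 24.3 and 35.3, against -21.2 and -52.5 for OP50 replicates 1 and 2, so that OP50 replicate 2 stood apart. Results are therefore also given without it. Whether the libraries of a diet were grown as separate cultures is not stated, and p-values then describe the spread among these libraries only, part of which may be technical. Permuting 2 against 2 exactly can give no two-sided p below 0.333, so all tests come from edgeR's quasi-likelihood fit across all genes. A gene is called higher or lower where its Benjamini-Hochberg adjusted p was under 0.05, and log2 fold changes are OP50+LL12007 over OP50.

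With OP50+LL12007, 1305 of 14899 tested genes were higher than with OP50 and 1149 were lower, which is 8.76% and 7.71% of the tested genes. The rises were larger than the falls. The median log2 fold change was 0.78 for the higher genes and -0.56 for the lower ones, against 0.02 for all tested genes. Among the higher genes, 316 rose by more than 1 on the log2 scale and 26 by more than 2, and among the lower genes 78 fell by more than 1 and 10 by more than 2. The lower genes were expressed more strongly, with a median of 988 normalized counts (counts scaled to the mean library size), against 395 for the higher genes and 264 for all tested genes. In each of the 2454 called genes the libraries of the diets did not overlap, but this was so for 68.4% of all tested genes (34.6% above and 33.9% below). With upper-quartile scaling the calls shifted to 1515 higher and 806 lower genes, so that 65.3% of the calls were higher, against 53.2% with the TMM scaling used here.

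These calls rested strongly on both OP50+LL12007 libraries. Without OP50+LL12007 replicate 1, edgeR called 15 genes higher and 0 lower, and without replicate 2 it called 5 and 0, although without adjustment 1732 and 987 genes were lower at p under 0.05. Such a fit leaves a single library of the diet, which is assumed to vary as the other groups do. Without OP50 replicate 1 the counts were 2611 and 1892, and without OP50 replicate 2 they were 719 and 482. Of the 1305 higher genes, 573 were also called without OP50 replicate 2, as were 387 of the 1149 lower genes, and no gene called in both fits changed direction. DESeq2 on the same 6 libraries called 1368 genes higher and 1177 lower, of which 1111 and 1013 were also called by edgeR. The genes that stayed called with each of the 6 libraries left out in turn were *Y41C4A.32*, *hrg-7*, *C45B2.2*, *ZK84.1* and *R02E4.3*, all higher.

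**Figure D1:**
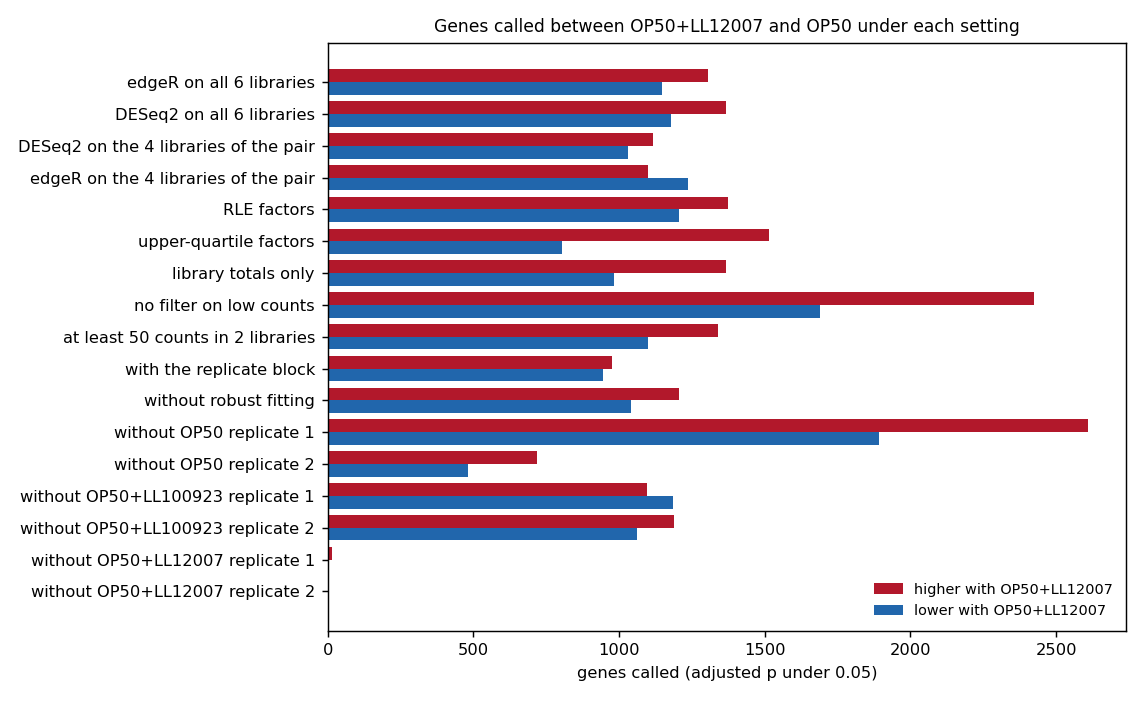
Number of genes called higher (red) and lower (blue) with OP50+LL12007 than with OP50 under each setting, on a linear axis from 0, with the edgeR fit of all 6 libraries at the top (1305 and 1149 genes). Leaving out either OP50+LL12007 library leaves 15 and 5 higher genes, whereas the settings that keep all libraries of both diets give 977 (with the replicate block) to 2425 (without a filter on low counts).

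Genes of heme homeostasis were among the higher genes. *hrg-7*, the gene of a protease-like protein that the intestine secretes as a signal of heme status, had 3362 and 2837 normalized counts with OP50+LL12007, against 685 and 441 with OP50 (log2 fold change 2.46, standard error 0.20, adjusted p = 0.00378 from edgeR). All of its OP50+LL12007 values were several fold above both OP50 values. *hrg-1*, the gene of a heme transporter of lysosome-related compartments, had 178 and 206 normalized counts with OP50+LL12007, against 48.3 and 57.6 with OP50 (log2 fold change 1.86, standard error 0.21, adjusted p = 0.00907 from edgeR). *hrg-2*, which encodes a heme-binding protein of the epidermis, had 111 and 80.7 normalized counts with OP50+LL12007, against 43.3 and 43.5 with OP50 (log2 fold change 1.14, standard error 0.26, adjusted p = 0.0265 from edgeR). The intestinal heme importer gene *hrg-4* was higher in both OP50+LL12007 libraries at low counts, with 16.6 and 28.8 normalized counts with OP50+LL12007, against 4.16 and 6.06 with OP50, and just missed the threshold (adjusted p = 0.0509 from edgeR). Its homolog *hrg-6* lay at 1.36 (adjusted p = 0.0541 from edgeR). *mrp-5*, the gene of the exporter that passes heme out of the intestine, differed little, with 1665 and 1772 normalized counts with OP50+LL12007, against 1412 and 1753 with OP50. Of the 8 listed heme genes, *hrg-3* and *hrg-5* had too few counts to be tested, and 3 of the other 6 were higher, against 8.76% of all tested genes. The number was 2 and 1 without OP50+LL12007 replicates 1 and 2 and 2 without OP50 replicate 2, and *hrg-7* was among them each time (log2 fold changes of 2.19 to 2.81 over the 6 libraries left out).

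A gene of iron storage was lower. *ftn-1*, the iron-regulated ferritin gene of the intestine at chrV:7546468-7548012, minus strand (WBcel235), had 178 and 141.8 normalized counts with OP50+LL12007, against 429 and 609 with OP50 (log2 fold change -1.69, standard error 0.23, adjusted p = 0.0182 from edgeR), the second largest fall among genes with a mean of at least 100 normalized counts. The call was lost without either OP50+LL12007 library, with log2 fold changes of -1.93 to -1.41 over the libraries left out. The more abundant ferritin gene *ftn-2*, looked up after these values were seen, had 3803 and 3651 normalized counts with OP50+LL12007, against 4549 and 5031 with OP50, with a log2 fold change of -0.36 that was not called (adjusted p = 0.0652 from edgeR). *smf-3*, an intestinal transporter gene of iron and manganese looked up in the same way, was at -0.35 with few counts (adjusted p = 0.467 from edgeR). The 6 intestinal markers summed to 32995 and 35994 with OP50+LL12007, against 31122 and 19868 with OP50, in normalized counts. OP50 replicate 2 was the lowest of the 4 libraries in this sum, none of the 6 markers was called by edgeR, and the part of this in the values of intestinal genes was not tested.

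**Figure D2:**
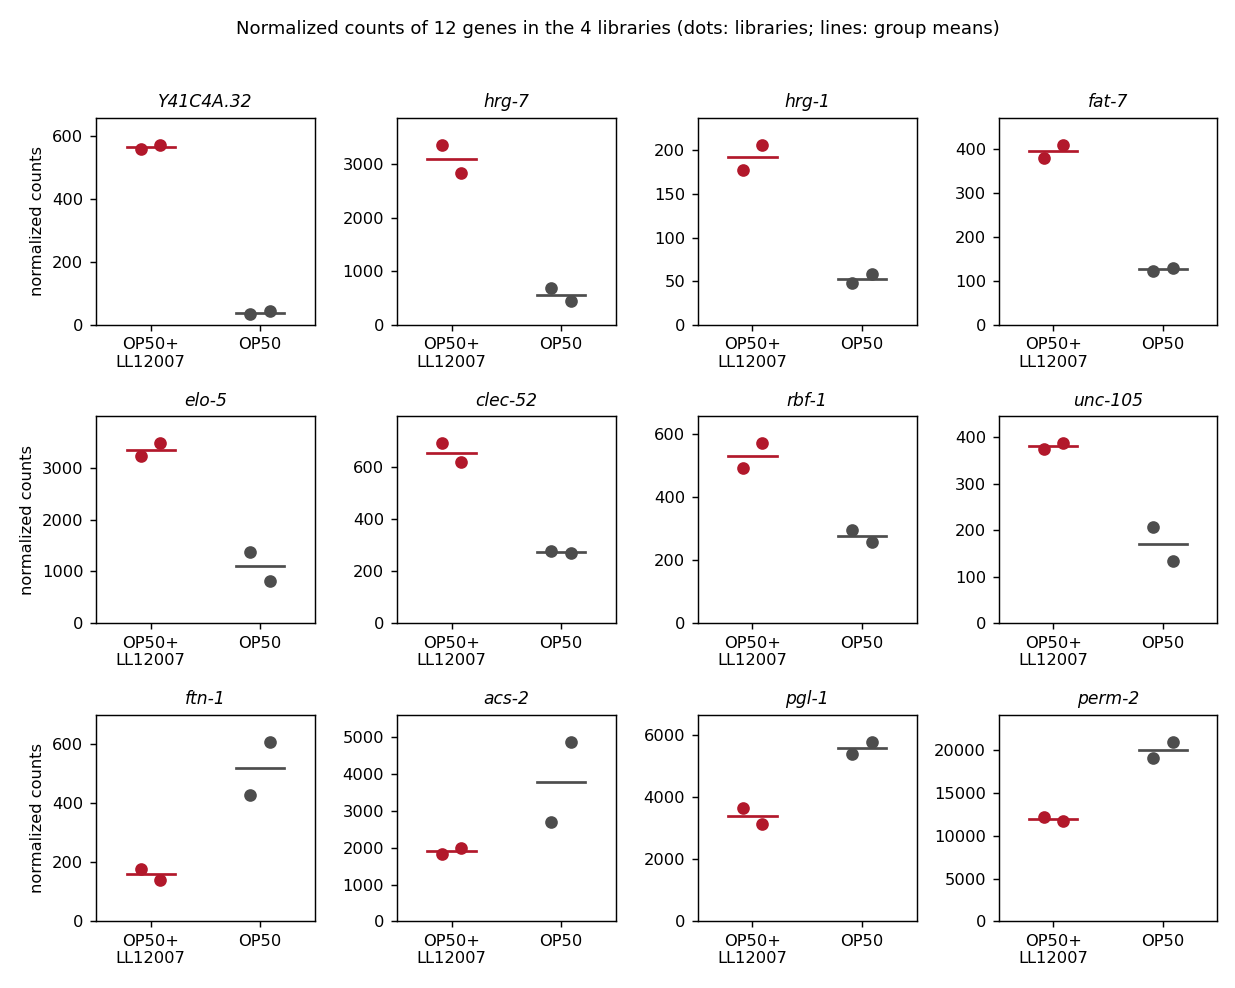
Normalized counts of 12 genes, each panel with its own linear axis from 0, with the 2 OP50+LL12007 libraries (red) to the left of the 2 OP50 libraries (grey) and lines at the group means. In all 12 the libraries of the diets do not overlap, and the fold difference is largest for *Y41C4A.32*, with 558 and 572 against 32.5 and 42.4.

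*Y41C4A.32* had the largest rise among genes with a mean of at least 100 normalized counts and the lowest adjusted p of all. This gene, at chrIII:11721706-11723602, plus strand (WBcel235), had 558 and 572 normalized counts with OP50+LL12007, against 32.5 and 42.4 with OP50 (log2 fold change 3.92, standard error 0.22, adjusted p = 0.000229 from edgeR). *B0205.13* followed with 168 and 209.7 normalized counts with OP50+LL12007, against 29.1 and 8.09 with OP50 (log2 fold change 3.29, standard error 0.42, adjusted p = 0.0180 from edgeR), and *C42D4.3* with 2361 and 2755 normalized counts with OP50+LL12007, against 460.2 and 228 with OP50 (log2 fold change 2.88, standard error 0.31, adjusted p = 0.0193 from edgeR). None of these 3 has a gene name that tells its function. The other genes among the 10 largest rises were *hrg-7*, *C45B2.2* (2.44), *R193.2* (2.33), *F35B3.4* (2.23), the astacin protease gene *nas-38* (2.08), *dpy-6* (1.99), which encodes a mucin-like protein needed for body shape, and *hrg-1*. *ZK84.1*, among the 5 lowest p-values, was far more abundant, with 6108 and 5924 normalized counts with OP50+LL12007, against 1907 and 2185 with OP50 (log2 fold change 1.56, standard error 0.12, adjusted p = 0.00185 from edgeR). *R02E4.3* had 491 and 529 normalized counts with OP50+LL12007, against 159.8 and 122.3 with OP50. Apart from the genes named above as called with each library left out, the calls of these genes were lost without at least 1 library of OP50+LL12007, and those of *F35B3.4* and *nas-38* also without either OP50+LL100923 library (log2 fold changes of 1.69 to 3.19 and 1.62 to 2.82 over the 6 left out).

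The largest falls with at least 100 normalized counts were more varied between the OP50 libraries. *Y6E2A.4* had 64.1 and 51.9 normalized counts with OP50+LL12007, against 128.99 and 291 with OP50 (log2 fold change -1.84, standard error 0.39, adjusted p = 0.0269 from edgeR), where OP50 replicate 2 lay far above replicate 1. The same library was also the higher one for *F47E1.4* (-1.66) and *F15E6.3* (-1.53). The falls of *pud-1.1*, with 70.8 and 85.3 normalized counts with OP50+LL12007, against 247 and 204 with OP50 (log2 fold change -1.53, standard error 0.27, adjusted p = 0.0195 from edgeR), and *pud-4* (-1.43) did not depend on it in this way. These belong to a nematode gene family whose products were found to be more abundant in *daf-2* mutants. *ZK105.1* had 457 and 415 normalized counts with OP50+LL12007, against 995 and 1292 with OP50 (log2 fold change -1.39, standard error 0.16, adjusted p = 0.00907 from edgeR), and *D1086.3* was at -1.39. The cuticle collagen genes *col-8* and *col-124* also fell, with log2 fold changes of -1.40 and -1.27. Among the lowest p-values of the lower genes were *ule-2* (-0.90) and *ule-4* (-0.95), both named for expression in the uterine lumen, and the aspartyl protease gene *asp-13* (-0.76). None of these falls stayed called without either OP50+LL12007 library, and *Y6E2A.4*, *F47E1.4* and *F15E6.3* also lost the call without OP50+LL100923 replicate 2. *F47E1.4* and *F15E6.3* lost it without OP50+LL100923 replicate 1 as well. The log2 fold changes over the 6 libraries left out ran from -2.32 to -1.14 for *Y6E2A.4*, from -2.19 to -0.85 for *F47E1.4*, whose call was also lost without OP50 replicate 2, and from -1.91 to -1.02 for *F15E6.3*.

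Some genes of fatty acid synthesis rose, and a few genes of fat burning fell. *fat-7*, a stearoyl-CoA desaturase that makes oleic acid, had 381 and 410.3 normalized counts with OP50+LL12007, against 122.3 and 130.4 with OP50 (log2 fold change 1.65, standard error 0.16, adjusted p = 0.00420 from edgeR). The palmitoyl-CoA desaturase gene *fat-5* had 1259 and 1166 normalized counts with OP50+LL12007, against 597 and 649 with OP50 (log2 fold change 0.96, standard error 0.14, adjusted p = 0.0193 from edgeR). The third such desaturase gene, *fat-6*, was far more abundant and was not called, with 6853 and 6882 normalized counts with OP50+LL12007, against 4857 and 7103 with OP50. *elo-5*, an elongase that the worm needs for its branched-chain fatty acids, had 3229 and 3477 normalized counts with OP50+LL12007, against 1375 and 818 with OP50 (log2 fold change 1.61, standard error 0.25, adjusted p = 0.0202 from edgeR). The related elongase gene *elo-6* was at 1.03. The palmitate elongase gene *elo-2* had 1848 and 1753 normalized counts with OP50+LL12007, against 929 and 549.8 with OP50 (log2 fold change 1.28, standard error 0.22, adjusted p = 0.0218 from edgeR). Fatty acid synthase, *fasn-1*, had 7048 and 7562 normalized counts with OP50+LL12007, against 5046 and 4459 with OP50 (log2 fold change 0.62, standard error 0.12, adjusted p = 0.0223 from edgeR). The exception was *acly-2*, an ATP citrate lyase gene, which fell by 0.58 on the log2 scale. In all, 6 of 21 listed genes were higher and 1 was lower, against 8.76% and 7.71% of all tested genes. The list median was 0.26, against 0.02 for all tested genes. The numbers higher were 1 and 0 without OP50+LL12007 replicates 1 and 2 and 9 and 8 without OP50 replicates 1 and 2, and the call of *fat-7* was lost only without OP50+LL12007 replicate 2.

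Among 28 genes of lipolysis and of mitochondrial and peroxisomal beta-oxidation, 4 were lower, against 7.71% of all tested genes, and 0 higher by edgeR (2 were higher at an unadjusted p under 0.05, and DESeq2 called 0 higher and 5 lower). The mitochondrial acyl-CoA synthetase gene *acs-2*, a well known fasting gene, had 1826 and 1986 normalized counts with OP50+LL12007, against 2704 and 4872 with OP50 (log2 fold change -0.99, standard error 0.26, adjusted p = 0.0462 from edgeR). The carnitine palmitoyltransferase gene *cpt-1*, whose product brings fatty acids into mitochondria, had 5449 and 5765 normalized counts with OP50+LL12007, against 7183 and 8133 with OP50 (log2 fold change -0.45, standard error 0.13, adjusted p = 0.0458 from edgeR). The acyl-CoA dehydrogenase gene *acdh-12* (-0.44) and the lipase cofactor gene *lid-1* (-0.39) completed the 4. *icl-1*, the glyoxylate cycle enzyme through which worms make sugar from fat and one of the most abundant lower genes, had 28252 and 29958 normalized counts with OP50+LL12007, against 39954 and 52941 with OP50 (log2 fold change -0.67, standard error 0.19, adjusted p = 0.0426 from edgeR). It was the single called gene of 26 in the TCA and glyoxylate cycle. Both *acs-2* and *icl-1* were highest in OP50 replicate 2, and *icl-1* was not called without that library (log2 fold change -0.45). *acs-2* was, at -0.49, but lost the call without any 1 of the 4 libraries of the *Lactococcus* diets (log2 fold changes of -1.36 to -0.49 over the 6 left out). Without OP50+LL12007 replicates 1 and 2 the number of lower genes of fat breakdown was 0 and 0 (4 and 4 at an unadjusted p under 0.05), without OP50 replicate 1 edgeR called 4 higher and 9 lower, and without OP50 replicate 2 it called 2 higher and 1 lower, so the balance turned.

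None of the 6 yolk protein genes was called by edgeR, although all had log2 fold changes below 0, from -0.69 to -0.21 (3 were lower at an unadjusted p under 0.05, and DESeq2 called 4 lower). Without OP50 replicate 1 edgeR called 1 higher and 3 lower, and without OP50 replicate 2 it called 0 and 2. The most abundant, *vit-6*, had 438606 and 382776 normalized counts with OP50+LL12007, against 467888 and 651242 with OP50 (adjusted p = 0.219 from edgeR). *vit-5* came closest to the threshold, at -0.69 (adjusted p = 0.0561 from edgeR). The OP50 libraries differed widely from each other in some of them, as in *vit-1* with 10041 and 8941 normalized counts with OP50+LL12007, against 18004 and 5890.1 with OP50. Of 17 lipase-related *lips* and *lipl* genes, 4 were higher, against 8.76% of all tested genes (7 higher and 3 lower without OP50 replicate 1). They were led by *lips-17*, with 289 and 304 normalized counts with OP50+LL12007, against 143 and 87.9 with OP50 (log2 fold change 1.35, standard error 0.25, adjusted p = 0.0198 from edgeR). *far-2*, a secreted fatty acid- and retinol-binding protein gene, was the most abundant of the lower genes, with 33257 and 32079 normalized counts with OP50+LL12007, against 49647 and 54888 with OP50 (log2 fold change -0.68, standard error 0.17, adjusted p = 0.0311 from edgeR).

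The study measured several genes of this diet by quantitative PCR, and the primers it designed for *cyp-33E2*, *unc-105*, *rbf-1* and *let-756* are shown because they define the transcripts that were followed outside the RNA-seq. They are written 5′ to 3′ in lower case, as listed in the study's primer table.
rbf-1 forward: tttgtcgtcgtcttcccgct
rbf-1 reverse: gttggggatcgcgctgttg
let-756 forward: tcatacggaggagcagccac
let-756 reverse: cggtccactcgatacggagc
unc-105 forward: ttacacgactggagacggcg
unc-105 reverse: agctgcatgtgaaattccgtgg
cyp-33E2 forward: aagacgtggagattgcgggt
cyp-33E2 reverse: ccgggacactgtcgttttcc

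In the counts, all 4 of these genes were higher. *rbf-1*, at chrIII:6675801-6703974, plus strand, encodes a rabphilin that binds Rab proteins on synaptic vesicles, and it had 492 and 570.5 normalized counts with OP50+LL12007, against 295 and 259 with OP50 (log2 fold change 0.94, standard error 0.19, adjusted p = 0.0231 from edgeR). *let-756*, at chrIII:6407129-6410018, plus strand, encodes a fibroblast growth factor that signals through the receptor EGL-15, and it had 1291 and 1313 normalized counts with OP50+LL12007, against 761 and 600.3 with OP50 (log2 fold change 0.93, standard error 0.15, adjusted p = 0.0193 from edgeR). The receptor gene *egl-15* was at 0.42 and was not called (adjusted p = 0.0666 from edgeR). *unc-105*, at chrII:8116356-8122904, plus strand, encodes a degenerin-like cation channel subunit of body wall muscle, and it had 376 and 387 normalized counts with OP50+LL12007, against 207 and 133 with OP50 (log2 fold change 1.16, standard error 0.24, adjusted p = 0.0239 from edgeR). *cyp-33E2*, at chrIV:8612363-8614683, plus strand, encodes a cytochrome P450 and was the weakest of the 4, with 117 and 189 normalized counts with OP50+LL12007, against 79.9 and 63.7 with OP50 (log2 fold change 1.09, standard error 0.29, adjusted p = 0.0360 from edgeR). Its OP50+LL12007 libraries differed from each other more than those of the other 3 genes. The calls of all 4 were lost without either OP50+LL12007 library, and that of *cyp-33E2* was also lost without OP50 replicate 2 (log2 fold changes of 0.72 to 1.39 over the 6 left out). Further genes with primers for this kind of check were also higher here. *clhm-1*, a calcium homeostasis modulator channel gene, had 158 and 198 normalized counts with OP50+LL12007, against 94.04 and 93.99 with OP50 (log2 fold change 0.92, standard error 0.20, adjusted p = 0.0245 from edgeR). The astacin gene *nas-7* was at 0.77, the guanylyl cyclase gene *daf-11* at 0.74 (adjusted p = 0.0433 from edgeR) and the pharyngeal troponin T gene *tnt-4* at 0.63. These calls and that of *clhm-1* were also lost without either OP50+LL12007 library, and that of *daf-11* held only without OP50 replicate 1. The call of *nas-7* was also lost without OP50 replicate 2, and that of *tnt-4* without OP50+LL100923 replicate 1. Over the 6 left out, log2 fold changes ran from 0.55 to 1.07 for *nas-7*, from 0.65 to 0.85 for *daf-11* and from 0.44 to 0.84 for *tnt-4*. The actin gene *act-1*, for which primers are also listed, had 10077 and 12166 normalized counts with OP50+LL12007, against 9189 and 6417 with OP50. It was not called (adjusted p = 0.0852 from edgeR). The study normalized its quantitative PCR to *act-1*, *tba-1* and *cyc-1*. In the counts *tba-1* was at -0.18 and *cyc-1* at 0.08, and neither was called (adjusted p = 0.447 and 0.707 from edgeR).

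Muscle genes were called higher in each of 5 lists, and none was called lower. Of 65 tested genes in 5 lists of muscle structure and calcium handling, 31 were higher and 0 lower by edgeR (DESeq2 called 45 and 0, and without adjustment 0 were lower at p under 0.05), against 8.76% and 7.71% of all tested genes. Their log2 fold changes ran from -0.16 to 0.92, with a median of 0.52, and 34 of the 65 were not called. Dense bodies, which anchor the thin filaments to the cell membrane, held the most calls of the 5 lists, with 13 of 19 genes higher and a median of 0.59. The alpha integrin gene *pat-2* had 3074 and 3603 normalized counts with OP50+LL12007, against 2374 and 1868 with OP50 (log2 fold change 0.65, standard error 0.14, adjusted p = 0.0245 from edgeR). The vinculin gene *deb-1* had 9386 and 10139 normalized counts with OP50+LL12007, against 7078 and 5682 with OP50 (log2 fold change 0.61, standard error 0.15, adjusted p = 0.0283 from edgeR). Alpha-actinin, *atn-1*, was at 0.61, and myotactin, *let-805*, which ties muscle to the epidermis, at 0.67. Of 14 thick filament and M-line genes, 5 were higher (median 0.53), and the strongest of them was *unc-89*, which encodes a giant M-line protein and had 11754 and 12201 normalized counts with OP50+LL12007, against 7006 and 5884 with OP50 (log2 fold change 0.89, standard error 0.16, adjusted p = 0.0198 from edgeR). The others were the titin-like gene *ttn-1* (0.87), *lim-9* (0.57), *unc-96* (0.62) and the minor body wall myosin gene *myo-3* (0.63). The major myosin heavy chain gene *unc-54* had 60658 and 64326 normalized counts with OP50+LL12007, against 48991 and 41909 with OP50 and missed the threshold (adjusted p = 0.0916 from edgeR), as did paramyosin, *unc-15*, at 0.47. Of 12 thin filament genes, only the troponin I gene *tni-1* (0.67) was called, although all 12 had log2 fold changes above 0 and a median of 0.43.

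Pharyngeal muscle pumps bacteria into the gut. The pharyngeal myosin genes *myo-2* and *myo-1* were among the most abundant higher genes. *myo-2* had 20661 and 21511 normalized counts with OP50+LL12007, against 15797 and 13023 with OP50 (log2 fold change 0.55, standard error 0.16, adjusted p = 0.0473 from edgeR). *myo-1* was at 0.64. In all, 5 of 7 pharyngeal muscle genes and 7 of 13 calcium handling genes were higher, with medians of 0.55 and 0.50. The calcium channel beta subunit gene *ccb-1* had 1238 and 1291 normalized counts with OP50+LL12007, against 727 and 672 with OP50 (log2 fold change 0.85, standard error 0.11, adjusted p = 0.0165 from edgeR). The junctophilin gene *jph-1*, which holds the cell membrane close to the sarcoplasmic reticulum, had 2350.3 and 2450.1 normalized counts with OP50+LL12007, against 1431 and 1338 with OP50 (log2 fold change 0.79, standard error 0.11, adjusted p = 0.0180 from edgeR). The L-type channel gene *egl-19* was at 0.64 and the ryanodine receptor gene *unc-68* at 0.59. Over the 5 muscle lists, edgeR called 0 and 0 genes higher without OP50+LL12007 replicates 1 and 2 (41 and 33 at an unadjusted p under 0.05), 54 without OP50 replicate 1 and 17 without OP50 replicate 2, and 19 without OP50+LL100923 replicate 1, and the median ranged from 0.37 to 0.70 over the libraries left out. The 5 body wall muscle markers summed to 116946 and 125341 with OP50+LL12007, against 94318 and 79482 with OP50, and the 5 pharyngeal markers to 58762 and 60824 with OP50+LL12007, against 44095 and 35031 with OP50. In both sets OP50 replicate 2 was the lowest library. Outside the muscle cell, 2 of 19 basement membrane genes were higher, near the 8.76% of all tested genes, the perlecan gene *unc-52* (0.68) and the metalloprotease gene *gon-1* (0.90).

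In lists of the synapse and of ion channels, called the neuronal lists here, all calls were higher. Not all of these genes act in neurons only. The channel gene *unc-105* belongs to body wall muscle and *exp-2* acts in the pharynx, and *slo-1* is also in the list of muscle calcium handling. Of 78 tested genes in 4 lists, 42 were higher and 0 lower by edgeR (DESeq2 called 42 and 0, and without adjustment 0 were lower at p under 0.05), against 8.76% and 7.71% of all tested genes, with a median log2 fold change of 0.69. In the machinery of synaptic vesicle release 14 of 22 genes were higher. The active zone gene *unc-10* had 954 and 1013 normalized counts with OP50+LL12007, against 518 and 516 with OP50 (log2 fold change 0.93, standard error 0.15, adjusted p = 0.0193 from edgeR). The calcium sensor gene *snt-1* (synaptotagmin) had 738 and 831 normalized counts with OP50+LL12007, against 459 and 411 with OP50 (log2 fold change 0.85, standard error 0.16, adjusted p = 0.0199 from edgeR). The vesicle-associated GTPase gene *rab-3* had 1149 and 1317 normalized counts with OP50+LL12007, against 803 and 583 with OP50 (log2 fold change 0.83, standard error 0.18, adjusted p = 0.0245 from edgeR). *unc-2*, the presynaptic calcium channel, was at 0.65, and *tom-1*, tomosyn, which holds release back, rose as well (0.63). Of 21 genes of acetylcholine and GABA signalling, 11 were higher, among them the 3 muscarinic receptor genes *gar-1* (1.08), *gar-2* (0.85) and *gar-3* (0.85), the levamisole receptor subunit gene *lev-1* (0.88) and the GABA receptor gene *unc-49* (0.62).

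Of 20 potassium channel genes 10 were higher, with a median of 0.77. The ERG-type channel gene *unc-103* had 1000.5 and 1000.3 normalized counts with OP50+LL12007, against 588 and 515 with OP50 (log2 fold change 0.86, standard error 0.15, adjusted p = 0.0193 from edgeR). *exp-2*, which ends each pharyngeal action potential, had 594 and 637 normalized counts with OP50+LL12007, against 335 and 291 with OP50 (log2 fold change 0.97, standard error 0.18, adjusted p = 0.0198 from edgeR). The calcium-activated channel gene *slo-1* was at 0.68. Among degenerin and leak channel genes 7 of 15 were higher, namely *unc-105*, *unc-8* (1.204), *del-1* (1.16), the touch channel partner *mec-2* (0.69) and *unc-79* (0.85), *unc-80* (0.65) and *nlf-1* (0.73), 3 genes needed for the sodium leak channel. Counted over whole families, 10 of 40 two-pore potassium channel genes, 12 of 41 ligand-gated channel genes and 5 of 21 *acr* receptor genes were higher, against 8.76% of all tested genes. These families gave 21, 16 and 10 higher genes without OP50 replicate 1, and 2, 4 and 0 without OP50 replicate 2. Genes of secreted peptides and of the cilium were higher at shares near the 8.76% of all tested genes. Of these, 2 of 30 *flp* genes and 8 of 66 *nlp* genes were higher, and some of the *nlp* genes, such as *nlp-29* (0.73) and *nlp-30* (1.31), encode antimicrobial peptides of the epidermis. These numbers were 16 and 30 without OP50 replicate 1, and 0 and 1 without OP50 replicate 2. Of 28 genes of the sensory cilium, only the kinesin gene *osm-3* (0.75) and the dynein gene *che-3* (0.68) were higher. The giant ankyrin gene *unc-44*, needed to shape axons, was among the most abundant higher genes, with 22033 and 21226 normalized counts with OP50+LL12007, against 13617 and 14973 with OP50 (log2 fold change 0.60, standard error 0.15, adjusted p = 0.0296 from edgeR).

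Over the 4 neuronal lists, 0 and 0 genes were called without OP50+LL12007 replicates 1 and 2 (52 and 45 higher at an unadjusted p under 0.05), 56 without OP50 replicate 1 and 20 without OP50 replicate 2, with medians from 0.59 to 0.85 over the libraries left out. The 6 pan-neuronal markers summed to 5185 and 5274 with OP50+LL12007, against 4409.9 and 4232 with OP50, with 2 of the 6 called higher, *rab-3* (0.83) and *sng-1* (0.72). Of the markers not called, *rgef-1* was at 0.67, *snb-1* at 0.065, *unc-119* at 0.0025 and *ric-19* at 0.0032. The 4 glial markers summed to 873 and 912 with OP50+LL12007, against 649 and 494 with OP50, with *ptr-10* (0.998) and *kcc-3* (0.68) called. Many of these genes are long. The median exon length was 1968 to 2762 bases in the 4 neuronal lists and 1317 to 3949 bases in the 5 muscle lists, against 1310 for all tested genes. All called genes shared part of this, with medians of 1750 bases for the higher and 1528 for the lower genes. The 4 germ line lists described below, whose calls were lower, had medians of 1795 to 2512.5 bases. Tested genes were also divided into 4 equal classes by exon length. In the shortest class 5.05% were higher and 4.38% lower, and in the longest class 14.8% were higher and 10.3% lower. Whether transcript length had a part in the calls of the neuronal, muscle and germ line lists was not tested.

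**Figure D3:**
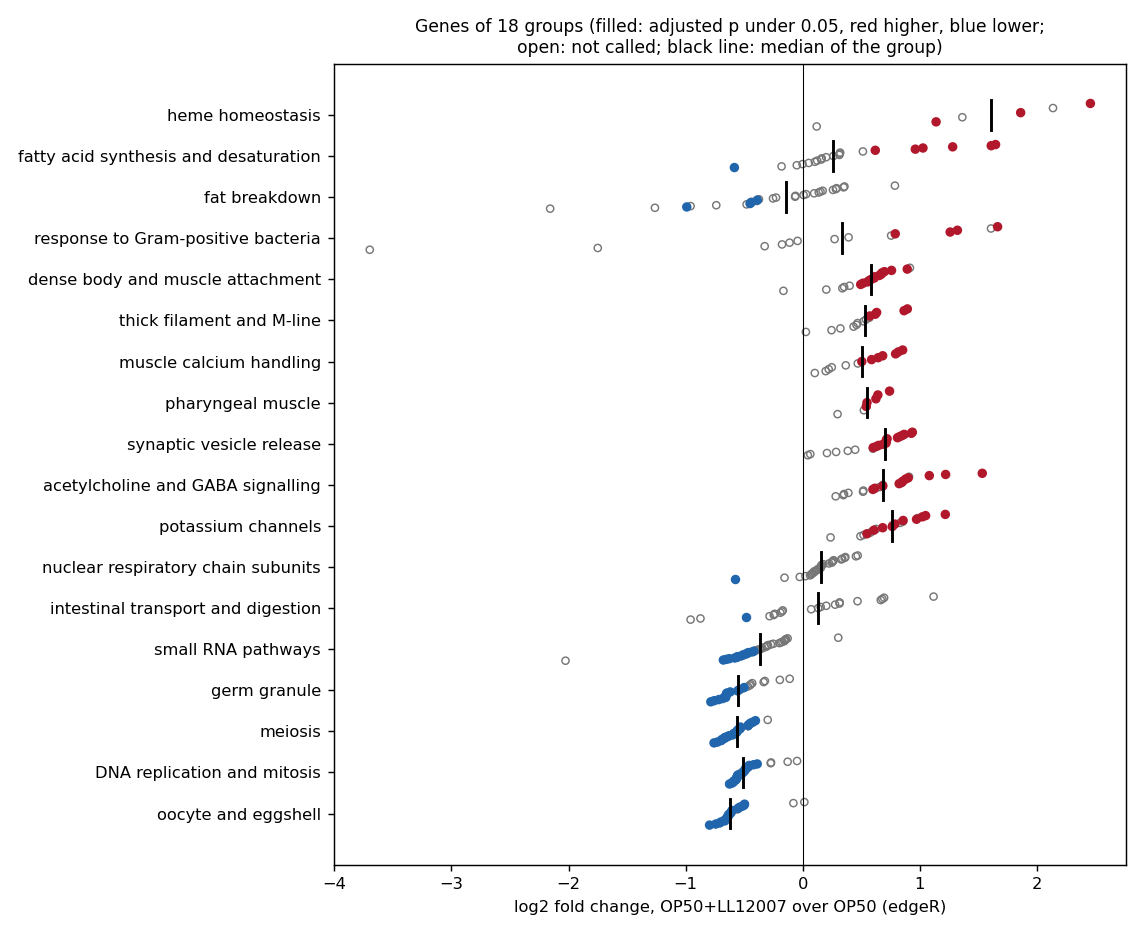
Log2 fold changes (OP50+LL12007 over OP50, horizontal axis) of the tested genes of 18 groups, with filled points for genes called higher (red) or lower (blue) by edgeR, open points for genes not called and a black line at the median of each group. The medians of the 4 muscle and 3 neuronal groups shown are 0.50 to 0.77, and those of the germ granule, meiosis, replication and oocyte groups -0.62 to -0.51.

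Genes of the cuticle and of the epidermis that secretes it gave calls in both directions in collagens and mostly higher genes among the other calls. Of 159 *col* genes 126 passed the filter on low counts, and of these 17 were higher and 11 lower, against 8.76% and 7.71% of all tested genes. Without OP50 replicate 1 the counts were 74 higher and 14 lower (median 0.90), and without OP50 replicate 2 they were 17 and 20 (median 0.20), so the balance turned with the library left out. *col-113* had 1023 and 1057 normalized counts with OP50+LL12007, against 548 and 517 with OP50 (log2 fold change 0.96, standard error 0.11, adjusted p = 0.00907 from edgeR). *col-14* had 5683 and 5917 normalized counts with OP50+LL12007, against 3387 and 2282 with OP50 (log2 fold change 1.03, standard error 0.18, adjusted p = 0.0193 from edgeR). *col-122*, on the other side, had 11112 and 9244 normalized counts with OP50+LL12007, against 23124 and 17277 with OP50 (log2 fold change -0.99, standard error 0.19, adjusted p = 0.0203 from edgeR). The adult collagen gene *col-19* was also lower (-1.13). It belongs to a set of 5 epidermal markers, of which 1 was higher and 1, *col-19*, lower, with a median of 0.24. Of 64 *abu* and *pqn* genes, many of which encode proteins of the pharyngeal lining, 23 were higher, against 8.76% of all tested genes. One of them was *pqn-71*, with 661 and 725 normalized counts with OP50+LL12007, against 325 and 338 with OP50 (log2 fold change 1.06, standard error 0.14, adjusted p = 0.0180 from edgeR). *abu-11* had 1494 and 1684 normalized counts with OP50+LL12007, against 880.5 and 723 with OP50 (log2 fold change 0.99, standard error 0.15, adjusted p = 0.0193 from edgeR).

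Of the Hedgehog-related and patched-related genes, 5 of 9 warthog, 8 of 35 ground and ground-like and 8 of 23 *ptr* genes were higher, against 8.76% of all tested genes. *grl-4* had 2295 and 2953 normalized counts with OP50+LL12007, against 979.5 and 618 with OP50 (log2 fold change 1.71, standard error 0.24, adjusted p = 0.0193 from edgeR). *wrt-9* had 499.7 and 522 normalized counts with OP50+LL12007, against 297 and 301 with OP50 (log2 fold change 0.77, standard error 0.13, adjusted p = 0.0193 from edgeR). *ptr-1* was at 1.09. *ptr-2* was the single *ptr* gene that fell (-0.44). Astacins, secreted zinc proteases, gave 9 of 28 genes higher, with *nas-30* at 521 and 582 normalized counts with OP50+LL12007, against 280.5 and 182 with OP50 (log2 fold change 1.25, standard error 0.20, adjusted p = 0.0193 from edgeR). Over these 6 lists 70 genes were higher and 12 lower of 285. Without OP50+LL12007 replicates 1 and 2 edgeR called 0 and 0 higher and 0 and 0 lower (88 and 75 higher and 18 and 13 lower at an unadjusted p under 0.05). It called 155 higher and 21 lower without OP50 replicate 1 and 47 and 23 without OP50 replicate 2, and the median ranged from 0.34 to 0.80. Collagen and *abu* genes have near-identical copies whose reads the counting could split, so their single values are uncertain. The spectraplakin gene *vab-10*, which fastens the epidermis to the cuticle, was the most abundant of all higher genes, with 27372 and 28209 normalized counts with OP50+LL12007, against 20261 and 17593 with OP50 (log2 fold change 0.55, standard error 0.15, adjusted p = 0.0405 from edgeR).

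Germ line genes were called lower in all 4 lists drawn for oogenesis. Of 107 tested genes in 4 lists, 85 were lower and 0 higher by edgeR (DESeq2 called 89 and 0, and 0 were higher at an unadjusted p under 0.05), against 7.71% and 8.76% of all tested genes. The median log2 fold change was -0.56, against 0.02 for all tested genes. The lists reach from the mitotic germ cells to the finished oocyte. In meiosis 25 of 30 genes were lower. The cohesin gene *rec-8* had 1385 and 1313 normalized counts with OP50+LL12007, against 1893 and 2087 with OP50 (log2 fold change -0.56, standard error 0.10, adjusted p = 0.0198 from edgeR). *syp-2*, a central element of the synaptonemal complex, had 485 and 431 normalized counts with OP50+LL12007, against 728 and 725 with OP50 (log2 fold change -0.66, standard error 0.13, adjusted p = 0.0223 from edgeR). The crossover genes *zhp-3* and *him-14* were at -0.69 and -0.76. Of 32 genes of DNA replication and mitosis 27 were lower, with the helicase subunit gene *mcm-5* at 2679.8 and 2538 normalized counts with OP50+LL12007, against 3541 and 3814 with OP50 (log2 fold change -0.50, standard error 0.11, adjusted p = 0.0246 from edgeR) and cyclin B, *cyb-1*, at -0.57. Germ granules, the RNA-rich bodies around germ nuclei, gave 13 of 22 genes lower. *pgl-1* had 3645 and 3145 normalized counts with OP50+LL12007, against 5388 and 5775 with OP50 (log2 fold change -0.72, standard error 0.13, adjusted p = 0.0198 from edgeR). The helicase gene *glh-2* was at -0.68 and the translational repressor gene *gld-1* at -0.62.

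Oocyte and eggshell genes were the most abundant of these, with 20 of 23 genes lower and a median of -0.62. The permeability barrier gene *perm-2* had 12179.5 and 11699.6 normalized counts with OP50+LL12007, against 19010.4 and 20953 with OP50 (log2 fold change -0.74, standard error 0.14, adjusted p = 0.0214 from edgeR). The chondroitin proteoglycan gene *cpg-2* had 18159 and 15327 normalized counts with OP50+LL12007, against 25725 and 26870.2 with OP50 (log2 fold change -0.65, standard error 0.18, adjusted p = 0.0382 from edgeR). The eggshell gene *cbd-1* was at -0.61. *oma-1*, needed for the oocyte to mature, had 2492 and 2077 normalized counts with OP50+LL12007, against 3364 and 3577 with OP50 (log2 fold change -0.60, standard error 0.12, adjusted p = 0.0225 from edgeR). The pseudophosphatase gene *egg-3*, which acts at the egg-to-embryo transition, was at -0.65. Over the 4 lists the number of lower genes was 0 and 0 without OP50+LL12007 replicates 1 and 2 (92 and 68 at an unadjusted p under 0.05), 96 without OP50 replicate 1 and 47 without OP50 replicate 2, and the median ranged from -0.61 to -0.48. The 5 germ line markers summed to 15561 and 13809 with OP50+LL12007, against 20997 and 24176 with OP50, and the 4 oocyte markers to 22114 and 19336 with OP50+LL12007, against 31602 and 33181 with OP50, with no overlap between the diets. Of the somatic gonad around them, the sheath innexin genes *inx-8* and *inx-9* fell (-0.82 and -0.65). The sheath markers *ceh-18* (0.93) and *lim-7* (0.25) lay above 0 and were not called (adjusted p = 0.067 and 0.354 from edgeR). The sum of the 4 sheath markers, which move in both directions, was 1974 and 1925 with OP50+LL12007, against 2116 and 2039 with OP50.

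**Figure D4:**
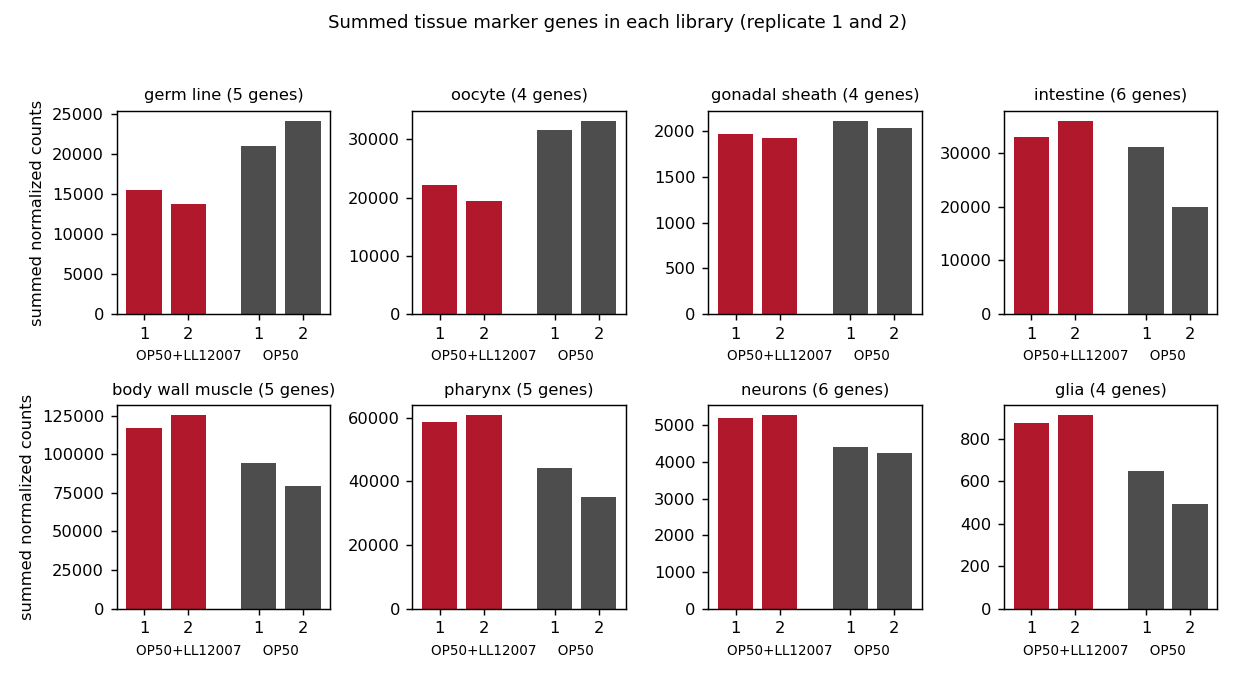
Summed normalized counts of the marker genes of 8 tissues in each library, on linear axes from 0, with OP50+LL12007 replicates 1 and 2 (red) to the left of OP50 replicates 1 and 2 (grey). Germ line and oocyte sums are lower in both OP50+LL12007 libraries, muscle, pharynx, neuron and glia sums are higher, and the intestine sum is low only in OP50 replicate 2 (19868, against 31122 in replicate 1).

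Sperm genes were at low counts in these adults. Of 25 listed spermatogenesis genes 15 were tested and 1 was lower, the transcription factor gene *spe-44* with 181 and 184 normalized counts with OP50+LL12007, against 274 and 302 with OP50 (log2 fold change -0.65, standard error 0.19, adjusted p = 0.0473 from edgeR). Of 35 major sperm protein genes 27 passed the filter on low counts and 1 was called by edgeR and none by DESeq2 (11 were lower at an unadjusted p under 0.05). The 27 genes summed to 242 and 316 normalized counts with OP50+LL12007, against 1218 and 387 with OP50. OP50 replicate 1 stood far above the other 3 libraries, and edgeR called 10 of these genes lower without OP50 replicate 2 and 0 without OP50 replicate 1. The gene called with all libraries, *msp-142*, had 6.63 and 4.61 normalized counts with OP50+LL12007, against 30.8 and 20.2 with OP50, and near-identical copies make these values uncertain. The 5 sperm markers summed to 74.1 and 67.99 with OP50+LL12007, against 151 and 71.8 with OP50, where OP50 replicate 2 lay within the range of the OP50+LL12007 libraries. The early embryo markers, 5 of 8 tested, summed to 164 and 179.8 with OP50+LL12007, against 187 and 252 with OP50, and none of them was called by edgeR.

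Related genes known from different tissues had different values within a family. These pairs were picked after their values were seen, from the listed families and from the genes named above, and are given as a description. The germline ribosomal protein gene *rpl-11.1*, on chromosome V, had 9315 and 7393 normalized counts with OP50+LL12007, against 13508 and 14128 with OP50 (log2 fold change -0.73, standard error 0.20, adjusted p = 0.0425 from edgeR), whereas its copy on the X chromosome, *rpl-11.2*, had 56528 and 53033 normalized counts with OP50+LL12007, against 50692 and 27116 with OP50 (adjusted p = 0.204 from edgeR). *asb-1*, a germline subunit of the mitochondrial ATP synthase, on chromosome III, was lower (-0.58), and its X-linked counterpart *asb-2* was at 0.45 and not called (adjusted p = 0.0959 from edgeR). Of the glyceraldehyde-3-phosphate dehydrogenase genes, *gpd-1* and *gpd-4*, which are used in embryos, fell by 0.66 and 0.73 on the log2 scale, while *gpd-2* and *gpd-3* lay at 0.16 and 0.03 and were not called. They were the only called genes among 22 of glycolysis and gluconeogenesis. The germline Y-box genes *cey-2* and *cey-3* were lower (-0.73 and -0.66), and *cey-1* was at 0.14. Innexins, the gap junction proteins, divided within 1 family, with 4 higher and 6 lower of 21, against 8.76% and 7.71% of all tested genes. Those that join oocytes and sheath, *inx-22* with 611 and 483 normalized counts with OP50+LL12007, against 899 and 1019.7 with OP50 (log2 fold change -0.81, standard error 0.14, adjusted p = 0.0193 from edgeR) and *inx-14* (-0.69) with *inx-8* and *inx-9*, fell, as did *inx-2* and *inx-3* (-0.79 and -0.68), and *inx-18* (1.18) and *inx-1* (0.88), both known from neurons, rose. The calls of all these genes were lost without either OP50+LL12007 library, and those of *rpl-11.1*, *asb-1* and *inx-3* also without OP50 replicate 2 (log2 fold changes of -0.55, -0.47 and -0.46 there). *inx-9* lost the call with any of the 6 libraries left out and with DESeq2.

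Genes of small RNA pathways were lower more often than higher. Of 35 genes of small RNA pathways 13 were lower and 0 higher by edgeR, against 7.71% and 8.76% of all tested genes. None was higher by DESeq2 either (0 at an unadjusted p under 0.05 in edgeR, median -0.37). The Argonaute gene *csr-1*, which marks germline transcripts, had 2015 and 1828 normalized counts with OP50+LL12007, against 2669 and 3265 with OP50 (log2 fold change -0.63, standard error 0.13, adjusted p = 0.0239 from edgeR). *wago-1* was at -0.65, and *henn-1*, the methyltransferase of small RNA ends, at -0.58. Of 390 F-box genes, whose products pick proteins for degradation, 248 passed the filter on low counts, and 13 of these were lower and 1 higher, so that the share lower was below the 7.71% of all tested genes. Their median was -0.38. *fbxa-215*, with a low p-value among them, had 1567 and 1377 normalized counts with OP50+LL12007, against 2137 and 2121 with OP50 (log2 fold change -0.53, standard error 0.11, adjusted p = 0.0231 from edgeR). Of 115 MATH and BTB genes 77 passed the filter, of which 8 were lower, such as *bath-42* with 2410.0 and 2366 normalized counts with OP50+LL12007, against 3207 and 3442 with OP50 (log2 fold change -0.48, standard error 0.10, adjusted p = 0.0245 from edgeR), and *math-41* was higher (0.82). All 33 proteasome subunit genes had log2 fold changes below 0, from -0.61 to -0.06 with a median of -0.25, and 1 was called, *rpn-7*, with 2721 and 2675 normalized counts with OP50+LL12007, against 3838 and 3548 with OP50 (log2 fold change -0.45, standard error 0.11, adjusted p = 0.0310 from edgeR). Without OP50+LL12007 replicates 1 and 2 edgeR called 0 and 0 small RNA genes and 0 and 0 F-box, MATH and BTB genes lower (17 and 10, and 43 and 25, at an unadjusted p under 0.05), and without OP50 replicate 2 it called 6 and 8.

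Since *Lactococcus* is Gram-positive and OP50 is not, genes known to respond to Gram-positive bacteria were listed. Of 14, 4 were higher, against 8.76% of all tested genes, and 0 lower by edgeR or DESeq2 (1 at an unadjusted p under 0.05 in edgeR). The log2 fold changes of the list ran from -3.70, in a gene that was not called, to 1.66. Without OP50 replicate 1 edgeR called 5 higher and 3 lower, and without OP50 replicate 2 it called 7 and 0. The C-type lectin gene *clec-52* had 689.8 and 618 normalized counts with OP50+LL12007, against 278 and 268 with OP50 (log2 fold change 1.26, standard error 0.14, adjusted p = 0.00907 from edgeR). *clec-71* had 149 and 168 normalized counts with OP50+LL12007, against 84.05 and 41.4 with OP50 (log2 fold change 1.32, standard error 0.31, adjusted p = 0.0271 from edgeR). The invertebrate lysozyme gene *ilys-2* had 137 and 164 normalized counts with OP50+LL12007, against 26.6 and 69.7 with OP50 (log2 fold change 1.66, standard error 0.39, adjusted p = 0.0296 from edgeR). *exc-5* was at 0.79. Of 12 effectors of the p38 pathway, 2 were lower and 0 higher by edgeR (2 were higher at an unadjusted p under 0.05, DESeq2 called 1 higher, and edgeR called 3 higher without OP50 replicate 1). The lower ones were *T24B8.5* with 352 and 307 normalized counts with OP50+LL12007, against 548 and 503 with OP50 (log2 fold change -0.68, standard error 0.14, adjusted p = 0.0239 from edgeR) and *clec-85* (-0.41). Lectins as a family were mixed, with 6 higher and 9 lower of the 120 that passed the filter, out of 264, shares near or below those of all genes. *clec-180* had 1972 and 2216 normalized counts with OP50+LL12007, against 1043 and 829 with OP50 (log2 fold change 1.16, standard error 0.16, adjusted p = 0.0180 from edgeR). *clec-87*, an abundant gene, had 6783 and 6128 normalized counts with OP50+LL12007, against 9999 and 10102 with OP50 (log2 fold change -0.64, standard error 0.13, adjusted p = 0.0239 from edgeR). The lysozyme gene *lys-4* rose by 0.55 on the log2 scale. Over these lists with the saposin-like genes, 9 genes were higher and 11 lower of 163. Without OP50+LL12007 replicates 1 and 2 edgeR called 0 and 0 of them higher (17 and 13 at an unadjusted p under 0.05), and without OP50 replicate 1 it called 24 higher and 24 lower.

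Some genes of the p38, JNK and SKN-1 pathways were themselves higher, 7 of 16, against 8.76% of all tested genes, with a median of 0.47. *tir-1*, the adaptor at the top of the p38 cascade, had 1417 and 1553 normalized counts with OP50+LL12007, against 948 and 979 with OP50 (log2 fold change 0.62, standard error 0.11, adjusted p = 0.0198 from edgeR). The phosphatase gene *vhp-1* had 2227 and 2459 normalized counts with OP50+LL12007, against 1481 and 1495 with OP50 (log2 fold change 0.66, standard error 0.11, adjusted p = 0.0193 from edgeR). The Tribbles pseudokinase gene *nipi-3* had 2180.1 and 2398 normalized counts with OP50+LL12007, against 1476 and 1209.7 with OP50 (log2 fold change 0.77, standard error 0.14, adjusted p = 0.0195 from edgeR). *pmk-2* was at 0.71, *kgb-1* at 0.47 and *jnk-1* at 0.72. The study also used mutants of *pmk-1*, *skn-1* and *daf-16*, and none of these 3 genes was called. *pmk-1*, the main p38 kinase of immunity, had 626 and 505 normalized counts with OP50+LL12007, against 512 and 492 with OP50 (adjusted p = 0.467 from edgeR). *skn-1*, the gene of an Nrf transcription factor, was at 0.10 and *daf-16*, the FOXO gene of insulin signalling, at 0.15. The number of higher genes in the list of the p38, JNK and SKN-1 pathways was 0 and 0 without OP50+LL12007 replicates 1 and 2 (7 and 7 at an unadjusted p under 0.05) and 5 without OP50 replicate 2.

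Genes of detoxification were higher at about the share of all tested genes. Of 191 tested genes in 5 lists, 17 were higher and 7 lower, against 8.76% and 7.71% of all tested genes. The ABC transporter gene *pgp-9* had 736 and 836 normalized counts with OP50+LL12007, against 329 and 206 with OP50 (log2 fold change 1.55, standard error 0.20, adjusted p = 0.0180 from edgeR). *gst-38*, a glutathione S-transferase gene, had 77.4 and 95.7 normalized counts with OP50+LL12007, against 26.6 and 29.3 with OP50 (log2 fold change 1.63, standard error 0.33, adjusted p = 0.0226 from edgeR), and among UDP-glucuronosyltransferase genes, 8 of 61 higher, *ugt-62* had 534 and 727 normalized counts with OP50+LL12007, against 313 and 192 with OP50 (log2 fold change 1.31, standard error 0.24, adjusted p = 0.0211 from edgeR). Of 63 P450 genes, 2 were higher and 4 lower. Of the lower ones, *cyp-31A2* and *cyp-31A3*, at -0.60 and -0.72, make lipids of the eggshell, and *cyp-31A5* (-0.78) is a near copy of theirs. The number of higher genes was 0 and 0 without OP50+LL12007 replicates 1 and 2 (25 and 18 at an unadjusted p under 0.05 in edgeR), 54 without OP50 replicate 1 and 10 without OP50 replicate 2.

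Among nuclear hormone receptors, transcription factors that bind small lipophilic molecules, the share of higher genes was near that of all tested genes. Of 281 *nhr* genes 199 passed the filter on low counts, of which 23 were higher and 1 was lower, against 8.76% and 7.71% of all tested genes, with a median of 0.35 (DESeq2 called 18 higher and 1 lower). *nhr-31*, needed for the excretory canal, had 1199 and 1431 normalized counts with OP50+LL12007, against 668 and 603 with OP50 (log2 fold change 1.05, standard error 0.17, adjusted p = 0.0193 from edgeR). *nhr-114*, which guards the germ line against effects of diet, had 689 and 734 normalized counts with OP50+LL12007, against 470.2 and 322 with OP50 (log2 fold change 0.84, standard error 0.18, adjusted p = 0.0242 from edgeR). The lower one was *nhr-2* (-0.74), which is expressed in early embryos. Of 54 tested *ceh* homeobox genes 5 were lower and 1 was higher, with the share lower near the 7.71% of all tested genes. Among the lower ones was *ceh-51*, a mesoderm gene of the early embryo, with 38.7 and 34.6 normalized counts with OP50+LL12007, against 94.9 and 92.0 with OP50 (log2 fold change -1.35, standard error 0.29, adjusted p = 0.0242 from edgeR). In Wnt signalling 5 of 23 were lower and 1 was higher, *lin-18* (0.62), against 7.71% and 8.76% of all tested genes. The lower ones included the maternal ligand gene *mom-2* with 1119.9 and 1091 normalized counts with OP50+LL12007, against 1549.6 and 1585 with OP50 (log2 fold change -0.50, standard error 0.12, adjusted p = 0.0265 from edgeR), the beta-catenin gene *wrm-1* (-0.56) and the receptor gene *mom-5* (-0.40). Without OP50+LL12007 replicates 1 and 2 edgeR called 0 and 0 *nhr* genes higher (33 and 29 at an unadjusted p under 0.05), and without OP50 replicate 2 it called 9.

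Core metabolism, ribosomes and stress responses held few calls. Over 12 lists of 366 tested genes, which cover energy metabolism, ribosomes, the proteasome and stress responses, 6 were higher and 9 lower, shares below the 8.76% and 7.71% of all tested genes. The heat shock gene *hsp-70* had 3591 and 3331 normalized counts with OP50+LL12007, against 6678 and 4995 with OP50 (log2 fold change -0.75, standard error 0.15, adjusted p = 0.0218 from edgeR), the only call among 20 of cytosolic heat shock. *sod-4*, an extracellular superoxide dismutase gene, had 316 and 322 normalized counts with OP50+LL12007, against 183 and 214 with OP50 (log2 fold change 0.68, standard error 0.16, adjusted p = 0.0285 from edgeR). *atf-5*, a transcription factor gene of the response to unfolded proteins and to amino acid shortage, was at 0.47. All 12 mitochondrially encoded subunit genes had log2 fold changes above 0, with a median of 0.41, and 1 was called, *ndfl-4* with 572 and 668 normalized counts with OP50+LL12007, against 374 and 352 with OP50 (log2 fold change 0.77, standard error 0.14, adjusted p = 0.0196 from edgeR). The mitochondrial genes took 0.646% and 0.750% of the counts with OP50+LL12007, against 0.590% and 0.479% with OP50. The 30 nuclear subunit genes had a median of 0.16. Without OP50 replicate 1 the calls in these 12 lists were 98 higher and 19 lower, without OP50 replicate 2 4 and 5, and without either OP50+LL12007 library 0 and 0 (without adjustment, 12 and 13 and then 11 and 8 genes had p under 0.05 in edgeR).

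Changes differed between chromosomes. On the X chromosome 310 of 2235 tested genes were higher (13.9%) and 72 lower (3.22%), whereas on the autosomes 994 of 12650 were higher (7.86%) and 1077 lower (8.51%). The median log2 fold change was 0.26 on X and -0.04 on the autosomes, and the difference between them was 0.21 to 0.34 under all settings tried. Of the autosomes, chromosome I had the largest share of lower genes (10.9%) and chromosome V the largest share of higher ones (9.21%). In the worm the X chromosome is largely silent in mitotic and early meiotic germ cells and holds few of their genes. None of the tested genes of meiosis, of DNA replication and mitosis or of the oocyte list lies on it, but 4 of the 22 germ granule genes do. Whether germ line genes had a part in the difference between X and the autosomes was not tested. The contrast held at each level of expression, with the genes divided into 4 equal classes by mean count. In the class with the most counts, 20.1% of X genes were higher and 7.29% lower, against 7.57% and 16.6% of autosomal genes, and in the second lowest class 12.4% and 2.49% of X genes, against 10.3% and 3.16% of autosomal genes. In the lowest class, where few genes were called, 4.23% of X genes were higher and 0.53% lower, against 2.597% and 0.82% of autosomal genes. In the longest of 4 such classes by exon length, 22.04% of X genes were higher and 2.999% lower, against 13.2% and 11.8% of autosomal ones. The X chromosome nevertheless took about the same share of all counts, with 13.7% in both OP50+LL12007 libraries, against 13.02% and 13.7% in the OP50 libraries. Without OP50+LL12007 replicates 1 and 2, 6 and 2 X genes were called higher, with medians of 0.29 and 0.24 on X and -0.04 and -0.03 on the autosomes.

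**Figure D5:**
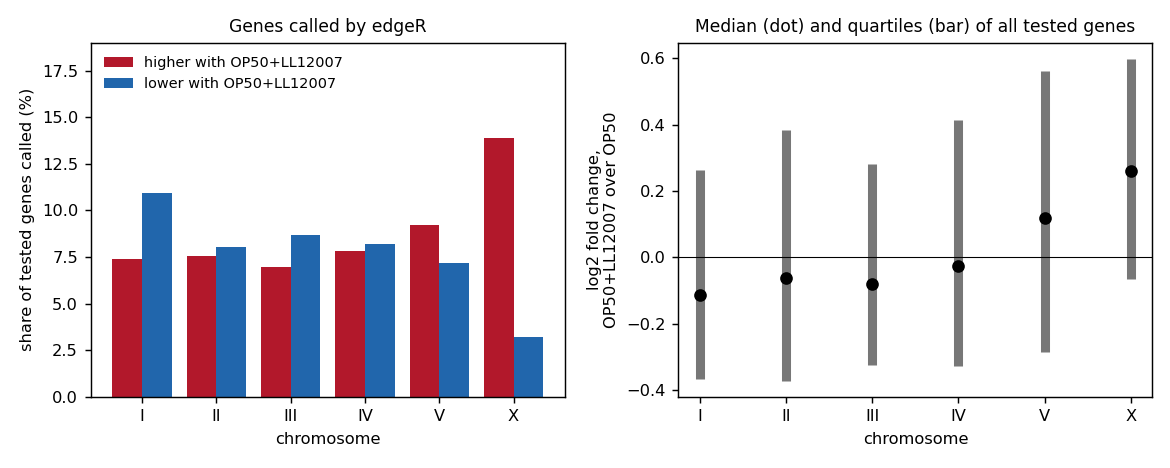
Left, share of tested genes called higher (red) and lower (blue) with OP50+LL12007 than with OP50 on each chromosome, in percent from 0. Right, median (dot) and quartiles (bar) of the log2 fold change of all tested genes per chromosome. Of the nuclear chromosomes, which are the ones shown, X has the largest share higher (13.9%) and the smallest share lower (3.22%).

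The comparison of OP50+LL100923 with OP50 uses the same OP50 libraries, so its values are set beside those of OP50+LL12007 without a test of their likeness. The log2 fold change of *hrg-7* over OP50 was 2.46 with OP50+LL12007 and 2.09 (adjusted p = 0.00610 from edgeR) with OP50+LL100923, and that of *Y41C4A.32* was 3.92 with OP50+LL12007 and 3.51 (adjusted p = 0.000615 from edgeR) with OP50+LL100923. For 4 genes of iron storage and fat metabolism, chosen after their values were seen, the diets lay further apart. *ftn-1* was at -1.69 with OP50+LL12007 and at -0.33 (adjusted p = 0.320 from edgeR) with OP50+LL100923. *elo-5* was at 1.61 with OP50+LL12007 and at 0.12 (adjusted p = 0.767 from edgeR) with OP50+LL100923. *icl-1* was at -0.67 with OP50+LL12007 and at 0.11 (adjusted p = 0.726 from edgeR) with OP50+LL100923, and *acs-2* was at -0.99 with OP50+LL12007 and at -0.06 (adjusted p = 0.900 from edgeR) with OP50+LL100923. This was not so of all lipid genes, since *fat-5* was at 0.96 with OP50+LL12007 and at 0.92 (adjusted p = 0.0195 from edgeR) with OP50+LL100923. When the *Lactococcus* diets were tested against each other, edgeR called 0 genes, with 1530 at an unadjusted p under 0.05. DESeq2, tried after the edgeR result was known, called 150 genes, with 1174 at an unadjusted p under 0.05, and 15 of the genes named here were among them. The elongase gene *elo-5* was at 1.48 (adjusted p = 1.09e-07 from DESeq2 and 0.189 from edgeR) in OP50+LL12007 over OP50+LL100923, with normalized counts of 3229 and 3477 with OP50+LL12007, against 1025 and 1369.8 with OP50+LL100923. *ftn-1*, with 178 and 141.8 with OP50+LL12007, against 477 and 347 with OP50+LL100923, was at -1.37 (adjusted p = 0.000118 from DESeq2 and 0.158 from edgeR). *icl-1* was at -0.78 (adjusted p = 0.000941 from DESeq2 and 0.232 from edgeR) and *fat-7* at 0.79 (adjusted p = 0.0382 from DESeq2 and 0.178 from edgeR). The others were *elo-2*, *elo-6*, *ugt-62*, *pgp-9*, *B0205.13*, *clec-52*, *clec-180* and *lys-4*, higher with OP50+LL12007, and *acs-2*, *asp-13* and *Y6E2A.4*, lower. Since the call depended on the tool, none of these changes was shown to be particular to OP50+LL12007 by edgeR, and *hrg-7* and *Y41C4A.32* were called between the diets by neither tool.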

How the data were processed

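Poly(A) RNA of pooled whole worms was sequenced after stranded library preparation, with 2 libraries per diet. The authors deposited raw counts per gene for each library. The submitters' processing notes name STAR 2.7.2b, Trim Galore 0.6.5, Trimmomatic 0.39, cutadapt 2.7, featureCounts 1.6.4 and the genome ce11 (WBcel235). How strand and reads from near-identical copies were treated is not given in the sources used here, which leaves copies and overlapping genes uncertain. Counts were tested with edgeR 4.0.16 in R 4.3.3 (TMM factors, filterByExpr by diet, robust quasi-likelihood fit of all 6 libraries, 3 residual degrees of freedom), in which 14899 genes passed the filter, of 22505 with a count and 46904 listed. The pipeline was tested on simulated data. Standard errors were computed as |log2 fold change|/√F, and each normalized count is the deposited count times the ratio of the mean to the library's own effective size. Alternatives were DESeq2 1.42.0, other scalings and filters, a replicate block, the 4 libraries alone and each library left out. Lists and named genes were chosen with earlier results of these data known. Named are genes with primers or mutants in the study, the 10 largest changes per direction with at least 100 normalized counts on average, the 5 lowest p-values, the 5 most abundant called genes and, per list, the called genes of lowest p. Lists cover structural, signalling and metabolic pathways and whole gene families. For 11 gene names that a spreadsheet had turned into dates, names were taken from a gene table.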

Additional observations from a re-analysis of the deposited data

How the results depend on the processing

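Besides the fits with a single library left out, 10 other settings were tried, among them fits of the 4 libraries of OP50+LL12007 and OP50 alone. In these 10 settings none of the named genes changed sign, where *tba-1* and *cyc-1* were not among the genes followed. Of the 1305 higher genes 765, and of the 1149 lower genes 745, were called in all of them. Without a filter on low counts, 2425 genes were called higher and 1690 lower, of 22505 tested. With single libraries left out, the number of higher genes ranged from 5 to 2611 and that of lower genes from 0 to 1892, with the low ends without an OP50+LL12007 library, where 1 library stands for the diet. Of the genes named as not called, 5 changed sign, and their log2 fold changes over the libraries left out ran from -0.0495 to 0.51 for *fat-6*, from -0.0299 to 0.29 for *mrp-5*, from -0.91 to 0.69 for *vit-1*, from -0.0356 to 0.40 for *gpd-2* and from -0.0917 to 0.18 for *gpd-3*, with the sign turned without OP50 replicate 1 in the first 3 and without OP50 replicate 2 in the other 2 (*gpd-3* was also at -0.0249 without OP50+LL12007 replicate 1). The reference gene *cyc-1*, not in this count, also changed sign, at -0.0615 without OP50 replicate 2. The cause was not tested. The labels number the replicates alike in each diet, and nothing says that a number marks shared animals or a shared day. The deviations of same-numbered libraries correlated at r = -0.058 between OP50+LL12007 and OP50, 0.199 between OP50+LL12007 and OP50+LL100923 and -0.0016 between OP50+LL100923 and OP50, so not every pair of diets was over 0.1 and the numbers were not taken to pair the samples. With the replicate number as a block, edgeR called 977 genes higher and 945 lower. In the lowest of 4 equal classes by mean count, genes at 53.1 normalized counts or fewer were rarely called (2.85% higher and 0.78% lower). The absence of a call in them therefore does not show the absence of a change, and what size of change could be detected at this depth was not tested.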

Other observations

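The TGF-beta pathway, which sets body size in the worm, had 3 of 19 genes higher, against 8.76% of all tested genes, and a median log2 fold change of 0.41, against 0.02 for all tested genes. *drag-1*, a co-receptor gene of this pathway, had 80.7 and 122.2 normalized counts with OP50+LL12007, against 54.9 and 47.5 with OP50 (log2 fold change 0.98, standard error 0.27, adjusted p = 0.0398 from edgeR). The ligand gene *unc-129* was at 0.53. Among genes of axon guidance and adhesion, 4 of 22 were higher, against 8.76% of all tested genes. These were *unc-44*, the guidance cue gene *slt-1* (0.61), *madd-4* (0.72), whose product places receptors at neuromuscular junctions, and *lad-2* (0.56). Genes of neuropeptide receptors had a median of 0.72, yet only *npr-5* (0.82) and *npr-34* (0.86) of 33 tested genes were called, most of them at low counts.

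Of 22 ABC transporter genes, 3 were higher and 2 lower, against 8.76% and 7.71% of all tested genes. Besides *pgp-9*, *mrp-2* had 547 and 592 normalized counts with OP50+LL12007, against 345 and 232 with OP50 (log2 fold change 0.98, standard error 0.19, adjusted p = 0.0202 from edgeR) and *mrp-1* was at 0.65, whereas *mrp-4* was at -0.51. Transthyretin-related genes gave 2 higher and 6 lower of 48 tested, against 8.76% and 7.71% of all tested genes (without OP50 replicate 1 the counts were 7 and 7, and without OP50 replicate 2 they were 0 and 0), with *ttr-50* at -0.81 and *ttr-2* at -0.50. Among autophagy and lysosome genes the ubiquitin-like conjugation gene *atg-3* (-0.40) and *scav-3* (-0.43) were lower. In the methionine and folate cycle the thymidylate synthase gene *tyms-1*, which supplies thymidine for DNA, was the single call of 17 (-0.38). All of these calls were made with all 6 libraries, and none of the genes in these sentences stayed called with each library left out.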
